A study of Mus musculus with 3 samples.

Results

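Among endosteal cells that lacked Sca-1, the cells sorted as PDGFRa(+) had higher signals for osteocyte and hypertrophic cartilage genes than the cells sorted as PDGFRa(-), and lower signals for resting cartilage genes and for genes of DNA replication and mitosis. The matrix genes shared by all cartilage were nearly level. These statements rest on 2 of the 3 arrays of the series, the one labelled PDGFRa(+) Sca-1(-) and the one labelled PDGFRa(-) Sca-1(-), with 1 array on each side and no replicate. They therefore describe these arrays, and no p-value or error over animals could be computed.

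Both populations came from C57BL/6 mice. Collagenase released the cells from pieces of femur and tibia, and those carrying CD45, CD31 or Ter119, which mark blood, endothelial and erythroid cells, were removed by sorting before the split by PDGFRa. Age, sex and number of mice are not given in the sources used. The remaining population of the series, PDGFRa(+) Sca-1(+), enters only where its level is named. Since both arrays compared are Sca-1(-), they are called the PDGFRa(+) and the PDGFRa(-) array from here on.

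The growth plate, the cartilage at the end of a growing long bone, is built in layers. Resting cells feed columns of dividing chondrocytes, which leave the cell cycle, enlarge into prehypertrophic and hypertrophic cells and are replaced by bone. Prehypertrophic cells secrete Indian hedgehog, and the cells that receive it turn on the hedgehog target genes. Osteoblasts make bone matrix, and those that become enclosed in it turn into osteocytes, which control mineralisation and phosphate balance. PDGFRa is a receptor for platelet-derived growth factors and marks many mesenchymal cells.

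Values are MAS5 signals, the array maker's linear summary of a probe set, and a ratio is the PDGFRa(+) signal over the PDGFRa(-) signal. Of 18193 genes with a probe set, 11675 lay above a floor of 93.2 on at least 1 of the 2 arrays and were compared. Of these, 10393 were above it on both arrays and 1282 on 1 of them, for which the ratio is a bound against the floor, written as "at least". Where such a bound is under 2-fold, the true ratio may be larger, and the gene is counted as not past 2-fold rather than within it. Genes that differed by 2-fold or more were counted as higher or lower. By this rule 4.82% of the genes compared were higher on the PDGFRa(+) array, 5.63% were lower and 10.4% differed either way, and these shares are the background for every count that follows. Among genes above the floor on both arrays they were 4.65% higher and 5.24% lower. Different probe sets of the same gene scattered around each other with an SD of 0.37 in log2 ratio (4548 genes), which is a scatter of probes and not of animals. Among genes of a mean signal from 200 to 1000, the shares were 5.77% and 7.05%, and above 5000 they were 3.19% and 2.88%.

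**Figure D1:**
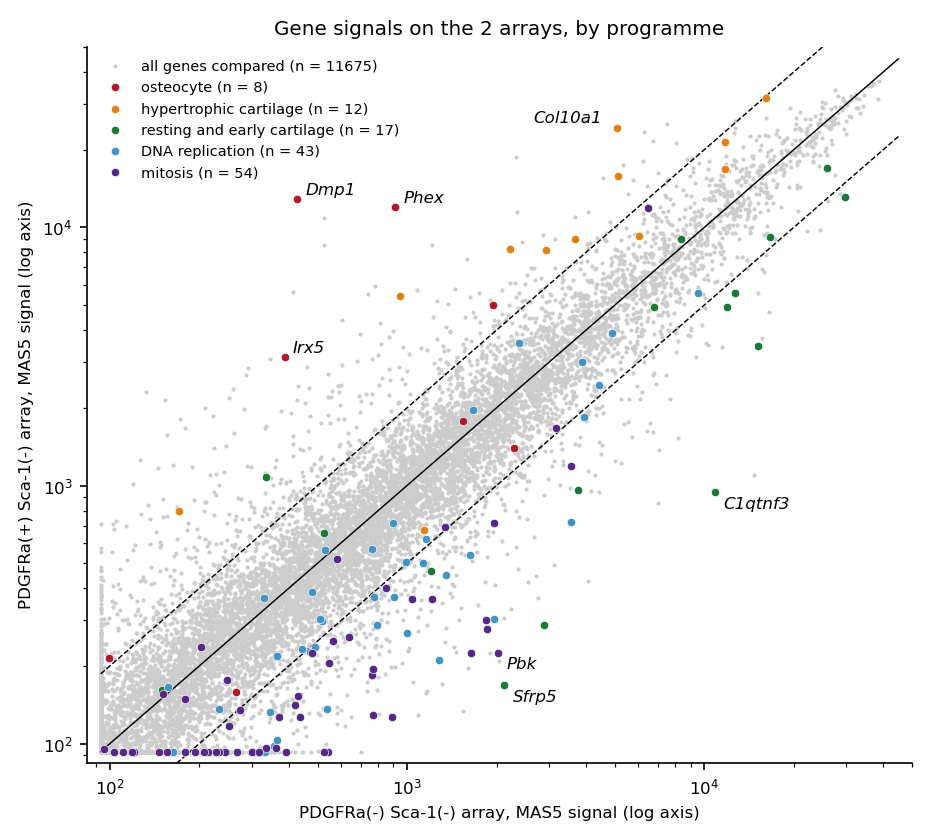
Each point is 1 gene, with its signal on the PDGFRa(-) Sca-1(-) array on the x axis and on the PDGFRa(+) Sca-1(-) array on the y axis, both log axes in MAS5 signal with values under the floor drawn at it. The solid line marks equal signals, the dashed lines 2-fold, and coloured points are members of 5 gene lists: osteocyte and hypertrophic points lie mostly above the upper dashed line, resting cartilage, replication and mitosis points mostly below the diagonal.

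The gate was checked on the transcript of the sorted protein. Pdgfra had a signal of 586 on the PDGFRa(-) and 2420 on the PDGFRa(+) array, 4.13-fold higher, and its 3 probe sets had log2 ratios from 0.77 to 2.17. The PDGFRa(-) population was thus lower in Pdgfra but above the floor. Against the label endosteal, cartilage matrix genes were among the brightest on both arrays, Col2a1 at 27518 and 26563. Among markers of cells the sort should have removed, 8 of 11 endothelial genes, Pecam1 and Cdh5 included, and 8 of 9 B lymphocyte genes with a probe set, Ptprc included, were under the floor on both arrays. Of neutrophil and precursor genes only 1 of 14 was, and of erythroid genes 3 of 14, at levels given below. The 3' to 5' signal ratio of Actb was 2.99 on the PDGFRa(-) and 2.63 on the PDGFRa(+) array, and that of Gapdh 3.93 and 3.54. The 12 probe sets of the poly-A spikes, bacterial RNA added before labelling, had a median ratio of 1.76, and their part in the results was not tested. Xist read 11713 and 12169, and the 3 Y-linked genes with a probe set were under the floor. Of 27 immediate early and stress genes, which cell isolation can induce, 22 were within 2-fold, at signals such as 24645 and 25492 for Fos. The others were 4 higher (14.8%) and 1 lower. Without genes over a signal of 20000, 4 of 20 were higher and 1 lower. The transcripts read here come from mixed cells, so fewer cells of a type and less RNA per cell cannot be told apart.

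The osteocyte genes held the widest ratio among the genes compared, that of Dmp1. Of 11 listed, 8 were above the floor on both arrays, 5 were higher on the PDGFRa(+) array, 0 lower, and 3 stayed within 2-fold. Their median log2 ratio was 1.23, against -0.03 over all genes compared. Dmp1, a phosphoprotein that osteocytes deposit around themselves, had a signal of 426 on the PDGFRa(-) array and 12890 on the PDGFRa(+) array, 30.3-fold higher. Its 3 probe sets had log2 ratios of at least 3.19, a bound, to 5.10, so all were past 2-fold. Phex, a membrane peptidase that restrains the phosphate hormone FGF23, had 913 and 12020, 13.2-fold higher, and both its probe sets were past 2-fold. The homeobox gene Irx5 had 388 and 3156, 8.14-fold higher, from 1 probe set. Fam20c, the kinase that phosphorylates secreted matrix proteins such as DMP1, had 1952 and 4985, 2.55-fold higher, with log2 ratios of 1.19 to 1.70 over 3 probe sets. The Wnt antagonist Dkk1 was near the floor, at 99.6 against 216. The list did not move as a block. Pdpn, a membrane glycoprotein of early osteocytes that is also found on many other cells, had 2287 and 1396, Npy 266 and 158, and the actin-capping Capg 1546 and 1777, all within 2-fold. Sost, Fgf23 and Mepe, products of mature osteocytes, were under the floor on both arrays.

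Osteoblast and bone matrix genes differed less. Of 26 listed, 20 had a probe set of their own and all 20 were compared. On the PDGFRa(+) array 6 were higher and 1 was lower. The others were 12 within 2-fold and 1 with a bound under it, and the list's median log2 ratio was 0.71. Col1a1, the main chain of bone collagen, had signals of 7476 and 25131 (3.36-fold), and Alpl, the phosphatase that frees phosphate for mineral, 5122 and 15795 (3.08-fold). Its partner chain Col1a2 was level at 29086 and 28482, close to the top of the arrays' range, as was Sparc at 38630 and 36952. The osteoblast transcription factor gene Sp7 had 1196 and 1479, and Dlx5 594 and 713, both within 2-fold. Ifitm5, a membrane protein of mineralising osteoblasts, had 196 and 561 (2.86-fold), and the osteoclast-inducing cytokine Tnfsf11, under the floor at 90.2 on the PDGFRa(-) array, had 267 on the other, at least 2.86-fold. Bone sialoprotein, Ibsp, missed the threshold at 16112 and 31665 (1.97-fold), while its dimmer probe set had a log2 ratio of 3.56. Omd, a small leucine-rich proteoglycan of bone, was the member that went the other way, at 6768 and 2730, 2.48-fold lower.

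Hypertrophic cartilage genes were higher on the PDGFRa(+) array for 7 of 12 compared, lower for 0 and inside the 2-fold range for 5. Their median log2 ratio was 1.38. All 12 were above the floor on both arrays. Of the 14 listed, 3 of those compared, Alpl, Ibsp and Pth1r, also stand in the osteoblast list. Col10a1, the collagen made by hypertrophic chondrocytes, had signals of 5071 and 24355, 4.80-fold higher. Ihh, the hedgehog ligand of prehypertrophic cells, was dim, at 171 and 795 (4.64-fold). Both genes had 1 probe set, so their ratios have no second reading. Bmp6, a growth factor of hypertrophic cartilage, had 947 and 5401 and the highest ratio of the list, 5.70-fold. Mmp13, the collagenase that opens the matrix to invading vessels, had 2224 and 8225 (3.70-fold), and Vegfa, the signal that draws those vessels in, 3677 and 9001 (2.45-fold). Mef2c, a transcription factor needed for hypertrophy, had 2943 and 8184 (2.78-fold) by its brightest probe set and log2 ratios of 1.48 to 2.31 over 5. Members within 2-fold were Ibsp, the parathyroid hormone receptor gene Pth1r (11783 and 21462), the citrate carrier gene Slc13a5 (6014 and 9250), the channel gene Panx3 (11737 and 16909) and Runx3 (1143 and 675). Runx3, a transcription factor of chondrocyte maturation, was the member with a ratio below 1.

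Resting and early cartilage genes went the other way. Of 18 listed, 17 were compared, and 10 were lower on the PDGFRa(+) array, 1 was higher and 6 stayed within 2-fold. The median log2 ratio was -1.20. Sfrp5, a Wnt antagonist of the resting zone, had signals of 2125 and 168, 12.6-fold lower on the PDGFRa(+) array. C1qtnf3, a secreted protein of growth cartilage, had 10889 and 942 (11.6-fold lower), and Hhip, a decoy receptor that binds hedgehog ligands, 2891 and 288 (10.02-fold lower). The 4 Hhip probe sets agreed closely, with log2 ratios of -3.79 to -3.33. Ucma, a small matrix protein of young chondrocytes, had 15138 and 3482 (4.35-fold lower), and its other probe set gave -3.23 in log2. The extracellular protein gene Spon1 had 3764 and 958 (3.93-fold lower), and the BMP antagonist Grem1 had 328 against a signal under the floor, at least 3.52-fold lower. The ratios of Cilp2 (2.58-fold), the Wnt antagonist Wif1 (2.41-fold), Scrg1 (2.29-fold) and the joint lubricant Prg4 (2.27-fold) were smaller. Prg4 belongs to the joint surface rather than the resting zone, and its signal of 29717 on the PDGFRa(-) array lay near the top of the range. The transcription factor gene Foxa2 had 336 and 1079, 3.21-fold higher, as the exception. Clu, Cilp, Gas1, Gdf5, Nt5e and Erg were within 2-fold.

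**Figure D2:**
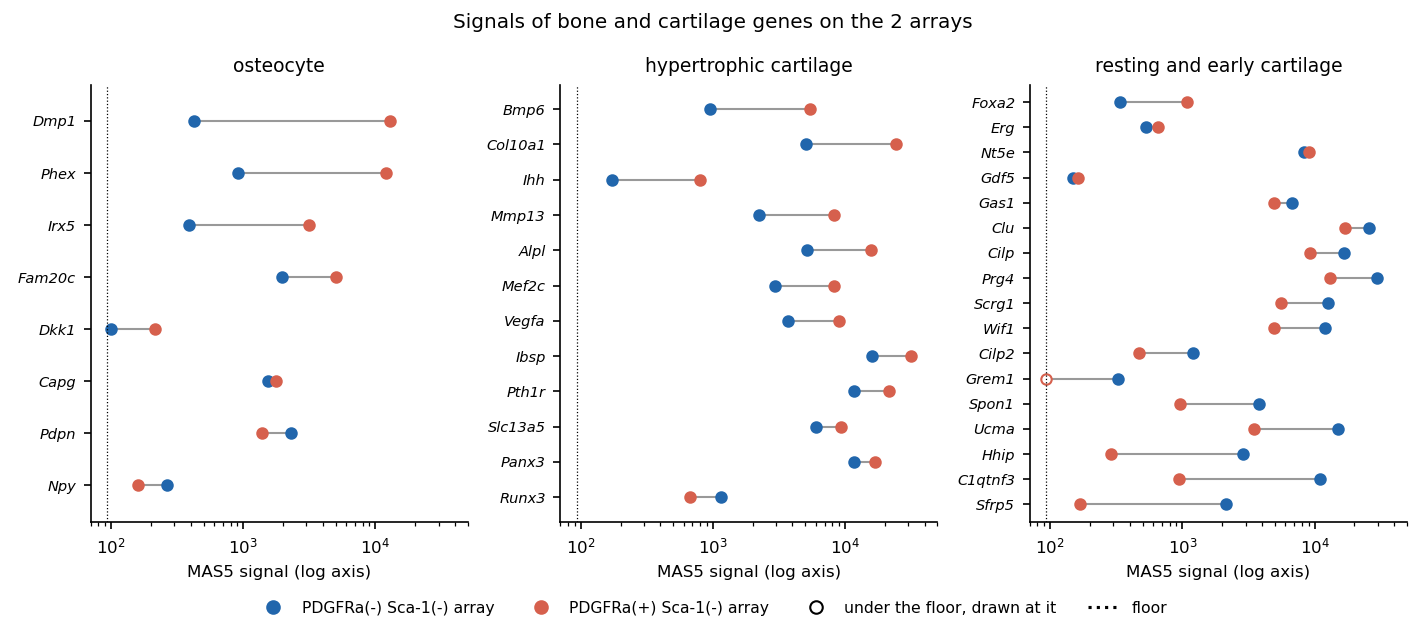
Paired signals of the compared members of the osteocyte, hypertrophic cartilage and resting and early cartilage lists, 1 gene per row and 1 point per array, on a log axis of MAS5 signal with the floor as a dotted line. The PDGFRa(+) point is to the right for most genes of the first and second panels, led by Dmp1 (426 to 12890) and Bmp6 (947 to 5401), and to the left for most of the last panel, led by Sfrp5 (2125 to 168).

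General cartilage matrix genes were mostly within 2-fold. All 27 listed were compared, 23 were within 2-fold, 1 was higher and 3 lower on the PDGFRa(+) array, and the median log2 ratio was -0.05. Signals were high on both sides, with 26620 and 26263 for the proteoglycan Acan, 35540 and 35155 for Col9a1 and 24513 and 26358 for Snorc. Of the list, 15 genes exceeded a signal of 20000 on at least 1 array, and whether such signals were saturated was not tested. Without genes over that signal, 9 of 12 were within 2-fold, 1 was higher and 2 were lower. The median log2 ratio was then -0.26. The dimmer Col9a2, at 12746 and 12559, and the master regulator Sox9, at 6285 and 6521, were level too, although the other Sox9 probe set had a log2 ratio of 1.85. Matn1, a matrix protein that bridges collagen and proteoglycan, was apart from the rest at 2331 and 18704, 8.03-fold higher. Sox5, a partner of SOX9, had 2161 and 542 (3.99-fold lower), by its brightest probe set, and its other 3 probe sets above the floor on both arrays had ratios from -1.21 to -0.84 in log2. Prelp (24501 and 9746) and Crtac1 (215 and under the floor) were the other members lower.

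Hedgehog pathway genes differed in both directions. Of 16 genes listed, 15 were compared, with 2 higher, 5 lower and 8 within 2-fold. On the sending side, Ihh was higher as given above, and Disp1, which releases the ligand from the cell that makes it, had 246 and 1422 (5.78-fold higher). Among the receptors and their helpers, Smo (4116 and 3237), Gas1 (6764 and 4902), Boc (1224 and 1138) and Cdon (3641 and 2306) were within 2-fold. Ptch1, both receptor and target gene, had 9405 and 3156, 2.98-fold lower, and Hhip, also a target, was 10.02-fold lower. Gli1, the target gene most used as a readout of the pathway, had 276 and a signal under the floor, at least 2.96-fold lower, and the transcription factor gene Gli2 had 1434 and 408 (3.51-fold lower), whereas Gli3 was level at 1269 and 1191. Scube2, which helps release and carry the ligand, had 2044 and 209 (9.78-fold lower). So the ligand gene was higher on the array where Ptch1, Hhip and Gli1 were lower.

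Secreted Wnt antagonists also went both ways. Of 14 listed, 10 were above the floor on both arrays, 4 higher, 3 lower and 3 within 2-fold. Sfrp5, Wif1 and the Wnt deacylase Notum (1897 and 224, 8.45-fold) were lower on the PDGFRa(+) array. Sfrp2 (181 and 673, 3.71-fold), Sfrp4 (726 and 2259, 3.11-fold), Frzb (2604 and 6993, 2.68-fold) and Dkk1 were higher. On the PDGFRa(+) Sca-1(+) array Sfrp2 read 2546 and Sfrp4 26399, while Frzb and Dkk1 were under the floor. Members of the same class of inhibitor, the frizzled-related proteins, thus differed in opposite directions.

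Genes of dividing cells were lower on the PDGFRa(+) array. Of 58 mitosis genes listed, 54 were compared, 38 were lower on the PDGFRa(+) array and 0 were higher. Of the other 16, 9 were within 2-fold and 7 had only a bound under it. The median log2 ratio was -1.36 with bounds entered at the floor. For 19 of the 54 the PDGFRa(+) signal was under the floor. Among the 35 measured on both arrays, 26 were lower, and the median was -1.49. With the mean over all probe sets of a gene in place of the brightest, 19 of 41 were lower, and with a floor at the 67th percentile of signals 19 of 35. The list's median signal was 220, in the range where 5.77% of all genes were higher and 7.05% lower.

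By role, the mitotic kinase gene Cdk1 had signals of 892 and 127 (7.02-fold lower on the PDGFRa(+) array), its partner cyclins Ccnb2 770 and 129 (5.97-fold) and Ccna2 769 and 194 (3.96-fold). Among the parts of the chromosomal passenger complex, which checks that chromosomes are attached, Cdca8 had 1640 and 224 (7.32-fold lower), Incenp 1963 and 713 (2.75-fold), Birc5 334 and 96.6 (3.46-fold), and Aurkb 268 against a signal under the floor (at least 2.88-fold). Of the complex that ties microtubules to the kinetochore, Spc25 (765 and 185, 4.13-fold) and Nuf2 (543 against under the floor, at least 5.83-fold) differed as well, but their partner Ndc80 has a bound short of 2-fold, at 146 against under the floor. Top2a, which untangles DNA, had 1838 and 302 (6.09-fold lower), the condensin genes Smc2 1036 and 365 (2.84-fold) and Ncaph 637 and 259 (2.45-fold), and Prc1 and Kif23, which build the midzone of the spindle, 1213 and 364 (3.33-fold) and 770 and 195 (3.94-fold). The mitotic kinase gene Pbk had the largest ratio of the list, 2029 and 225, 9.01-fold lower. Among central regulators, Foxm1 (203 and 237) and Mybl2 (151 and 156) were within 2-fold. Tpx2 had 583 and 518 by the probe set used but a log2 ratio of -1.18 by another, and Plk1, at 110 against under the floor, has a bound of at least 1.18-fold lower, which leaves its ratio unknown. Pttg1, the securin, had the highest ratio in the list, 6463 and 11928 (1.85-fold).

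DNA replication genes followed the same pattern more weakly. Of 47 listed, 43 were compared, 23 were lower on the PDGFRa(+) array, 0 higher, 19 within 2-fold and 1 with a bound under it. The median log2 ratio was -1.05. Among the 36 above the floor on both arrays 17 were lower. With the floor at the 67th percentile it was 12 of 37. The helicase subunits did not move together: Mcm5 had 1965 and 304 (6.47-fold lower) and Mcm3 1285 and 210 (6.11-fold), whereas Mcm2 (760 and 567), Mcm4 (3867 and 3018), Mcm7 (4432 and 2446) and Mcm6 (2384 and 3572) were within 2-fold. The probe sets of a subunit differed among themselves too, from -2.09 to -0.42 in log2 for Mcm2. Genes that supply nucleotides were lower, Rrm2 at 3556 and 722 (4.92-fold), Rrm1 at 1625 and 537 (3.03-fold), Tk1 at 314 and under the floor (at least 3.37-fold) and Dut at 1349 and 450. Of the primase genes, Prim1 had 1000 and 268 (3.74-fold lower) and Prim2 774 and 369 (2.10-fold). Among loading factors Cdc6 was at least 3.29-fold lower, Cdt1 2.15-fold and its inhibitor Gmnn 2.06-fold lower, while the sliding clamp Pcna, at 9505 and 5548, was within 2-fold.

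**Figure D3:**
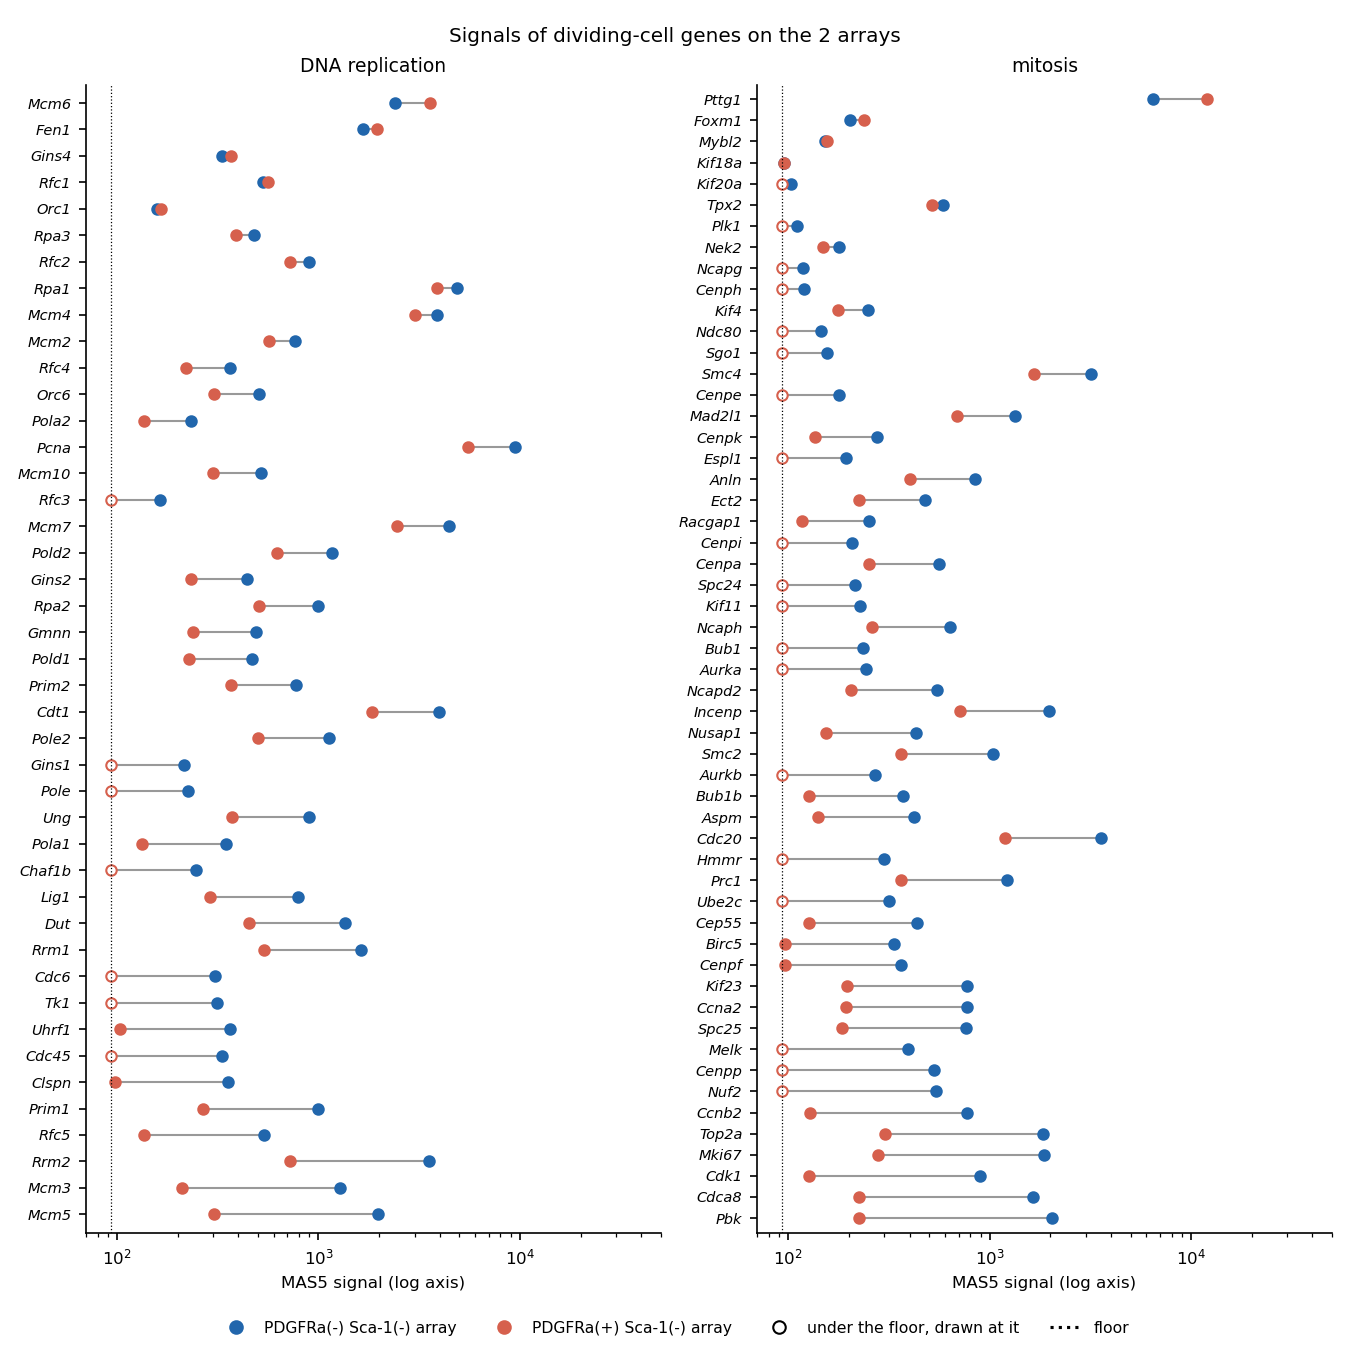
Paired signals of the 43 DNA replication and 54 mitosis genes compared, 1 gene per row, sorted by ratio, on a log axis of MAS5 signal with the floor dotted and open points for signals under it. The PDGFRa(-) signal is the higher in 38 of the 43 and 51 of the 54 rows, most widely for Pbk, Cdca8, Cdk1 and Mki67 in mitosis and Mcm5 and Mcm3 in replication, and Pttg1 and Mcm6 lie at the other end.

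Genes that control entry into the cycle mostly stayed within 2-fold, 23 of 31 compared, and 1 more had a bound under it. The E2F factors E2f8 (817 and 240, 3.41-fold), E2f1 (at least 3.14-fold) and E2f7 (at least 2.87-fold) and the cyclins Ccnd1 (2384 and 753, 3.16-fold) and Ccnd2 (2188 and 1080, 2.03-fold) were lower on the PDGFRa(+) array. The other Ccnd1 probe sets differed by less, down to -0.47 in log2, and with the mean over probe sets 3 of 28 genes of the list were lower in place of 5 of 31. Cdkn1c, an inhibitor of cyclin-dependent kinases expressed as chondrocytes stop dividing, had 6416 and 14450 (2.25-fold higher), and Ccng2, a cyclin of resting cells, 896 and 3967 (4.43-fold higher). Cdkn1a, Cdkn1b and Rb1 had ratios above 1 that did not reach 2-fold by the probe sets used. The other Cdkn1a probe set was past 2-fold, at 1.14 in log2.

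The promoters of these genes are shown because the members of the dividing-cell lists shared a direction. Textbook regulation of mitosis genes runs through the cell cycle genes homology region, CHR, spelled TTTGAA or TTCGAA, and through CCAAT boxes, while replication genes carry E2F sites, here spelled TTTCCCGC, TTTGGCGC or TTTCGCGC. The windows, from RefSeq on GRCm38.p6, run from 250 bases before to 50 after the start, 5' to 3' on the gene's strand. Both strands were searched, and capitals mark CHR and CCAAT in Cdk1, Cdca8 and Mki67 and E2F in Mcm5 and Mcm3. In Cdca8 a CHR and a CCAAT box, and in Mcm5 a pair of E2F matches, overlap.
Cdk1, chr10:69352863-69353162, minus strand: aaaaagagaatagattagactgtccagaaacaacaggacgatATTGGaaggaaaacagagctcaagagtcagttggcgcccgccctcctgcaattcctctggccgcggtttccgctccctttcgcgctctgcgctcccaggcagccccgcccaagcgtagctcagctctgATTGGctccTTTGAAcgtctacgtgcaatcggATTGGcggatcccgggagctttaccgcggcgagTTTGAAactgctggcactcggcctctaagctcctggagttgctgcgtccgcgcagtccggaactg
Cdca8, chr4:124936868-124937167, minus strand: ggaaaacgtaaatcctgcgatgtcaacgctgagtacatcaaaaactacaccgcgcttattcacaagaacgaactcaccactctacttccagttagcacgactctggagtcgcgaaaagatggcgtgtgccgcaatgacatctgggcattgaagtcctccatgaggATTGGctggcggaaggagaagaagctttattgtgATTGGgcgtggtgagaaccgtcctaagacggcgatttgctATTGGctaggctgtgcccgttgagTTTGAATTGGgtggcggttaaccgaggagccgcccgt
Mki67, chr7:135716330-135716629, minus strand: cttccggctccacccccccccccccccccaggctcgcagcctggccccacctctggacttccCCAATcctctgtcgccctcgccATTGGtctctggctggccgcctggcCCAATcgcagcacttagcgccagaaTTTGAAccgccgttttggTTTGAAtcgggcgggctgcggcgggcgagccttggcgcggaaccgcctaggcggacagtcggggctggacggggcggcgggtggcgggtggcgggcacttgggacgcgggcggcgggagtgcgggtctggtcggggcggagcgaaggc
Mcm5, chr8:75109259-75109558, plus strand: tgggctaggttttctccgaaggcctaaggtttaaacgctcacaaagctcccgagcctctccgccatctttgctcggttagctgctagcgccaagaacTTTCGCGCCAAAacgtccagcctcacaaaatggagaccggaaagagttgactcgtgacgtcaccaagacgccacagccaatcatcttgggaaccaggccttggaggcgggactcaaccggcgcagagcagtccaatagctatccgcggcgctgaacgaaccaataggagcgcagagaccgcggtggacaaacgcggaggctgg
Mcm3, chr1:20820263-20820562, minus strand: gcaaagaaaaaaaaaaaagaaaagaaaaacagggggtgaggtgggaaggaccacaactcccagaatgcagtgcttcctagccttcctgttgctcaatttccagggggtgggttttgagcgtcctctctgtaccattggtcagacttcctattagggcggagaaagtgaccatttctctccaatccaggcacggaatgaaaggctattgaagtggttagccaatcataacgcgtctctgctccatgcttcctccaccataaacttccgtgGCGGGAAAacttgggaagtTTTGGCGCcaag

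Of the 38 mitosis genes that were lower, 33 matched a promoter, with 38 windows. CHR stood in 73.7% of these windows and a CCAAT box in 76.3%, and 65.8% held both. Over all 32851 windows searched the shares were 19.2%, 37.4% and 7.52%, and over the 12156 windows of genes compared 13.6%, 36.9% and 5.23%. The mitosis genes not past 2-fold had 12 windows, of which 41.7% held CHR and 58.3% a CCAAT box. Of the 23 replication genes that were lower, 19 matched, with 22 windows. An E2F match stood in 45.5% of them, against 1.84% of all windows, 3.36% of those of genes compared and 21.1% of the 19 windows of replication genes not past 2-fold. CHR was in 4.55% of the windows of the lower replication genes and in 26.3% of those of the replication genes not past 2-fold, and a CCAAT box in 45.5% and 73.7%. A RUNX motif, TGTGGT or TGCGGT, was in 18.2% of 11 windows of the higher hypertrophic genes, in 40% of 5 windows of the higher osteocyte genes and in 22.4% of all windows, and the GLI motif, GACCACCCA or GACCACCCT, was in 0 of 4 windows of the lower hedgehog genes and in 0.408% of all. These are matches of letters, and genes with more than 1 window count more than once.

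**Figure D4:**
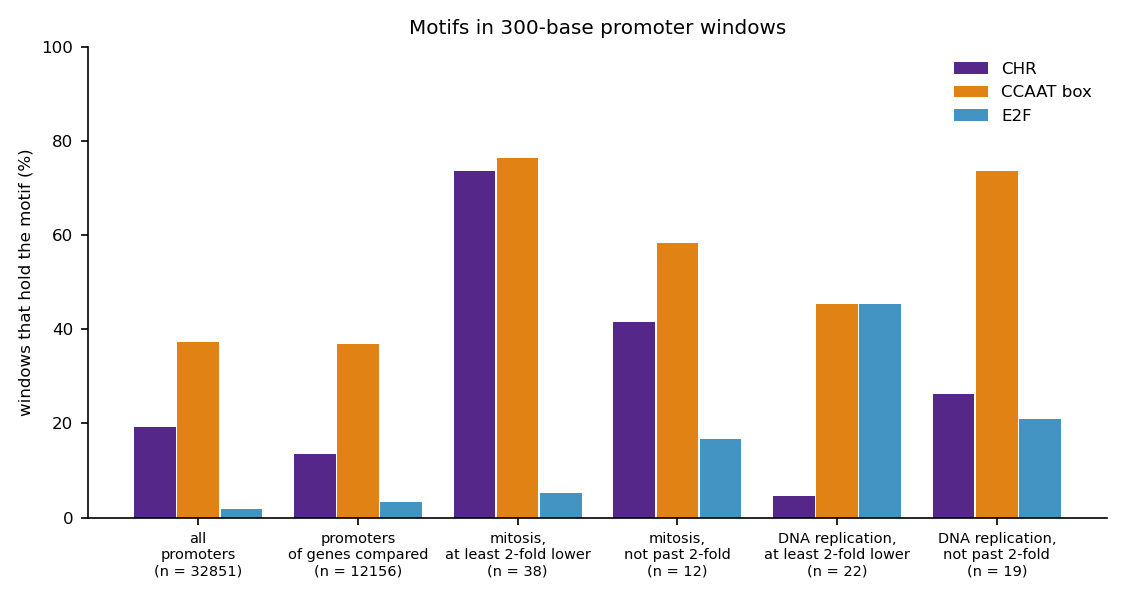
Bars give the percent of 300-base promoter windows that hold a CHR, CCAAT or E2F motif on either strand, for all promoters, for genes compared and for mitosis and replication genes lower or not past 2-fold, with the number of windows under each group. The CHR bar is tallest for the lower mitosis genes (73.7%) and the E2F bar for the lower replication genes (45.5%).

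Outside these lists, the largest ratios also held transporters, enzymes and adhesion genes. On the PDGFRa(+) side the hair keratin-associated gene Krtap17-1 (526 and 10867) had a 20.7-fold ratio and the phospholipase gene Plaat3 (133 and 2302) a 17.4-fold one. Next in order after Phex came the N-cadherin gene Cdh2 (172 and 1814, 10.6-fold), the ectonucleotidase gene Entpd3 (156 and 1575, 10.07-fold), the formin gene Fhod3 (126 and 1251, 9.90-fold), the collagen gene Col22a1 (292 and 2857, 9.78-fold) and the carboxypeptidase gene Cpz (209 and 1988, 9.52-fold). They were followed by the transporter gene Slco2b1 (9.38-fold), Cds1 (9.32-fold), the calcitonin receptor-like partner Ramp1 (9.13-fold), the metabolic switch kinase Pdk4 (8.96-fold), Cd1d1 (8.69-fold), Mlip (8.46-fold) and Abca8a (8.30-fold). The other Cds1 probe set had a log2 ratio of 2.66. Under the floor on the PDGFRa(-) array were the neutrophil enzyme gene Mpo (at least 7.64-fold), the scavenger receptor gene Scara5 (575 on the PDGFRa(+) array, at least 6.17-fold), Enox1 (554), Cavin4 (481), Eya4 (470) and Chn1 (467, at least 5.01-fold). The other Scara5 probe set, close to the floor, had at least 0.01 in log2. Next came Hrc (at least 4.76-fold), Enpp6 (at least 4.65-fold), Chst13 (at least 4.39-fold), Plac8 (at least 4.17-fold), Zim1 (at least 4.10-fold) and Cyp2f2 (at least 4.03-fold). Some of these genes were brighter still on the PDGFRa(+) Sca-1(+) array: Abca8a (16964), Scara5 (13292), Cyp2f2 (4199), Eya4 (1219) and Plac8 (965). The other genes named in this paragraph were dimmer there than on the PDGFRa(+) array.

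On the PDGFRa(-) side, after the genes already described, stood the fibrinogen chain gene Fgg (1547 and 134, 11.5-fold lower on the PDGFRa(+) array), the cytokine gene Il6 (4055 and 427, 9.49-fold), the sister chromatid cohesion factor gene Cdca5 (1092 and 130, 8.42-fold), Calml3 (7000 and 858, 8.16-fold), Epb41l4b (8.14-fold), Serpina3n (7.72-fold), Fam13c (7.52-fold), Pcp4 (7.36-fold) and Lrtm2 (7.33-fold). Kif26b (6.89-fold) and the smooth muscle gene Tagln (2240 and 333, 6.73-fold) closed the first 20, which also hold Apoe. The ratio of Epb41l4b rests on the 1 probe set above the floor on both arrays. Under the floor on the PDGFRa(+) array alone were the melanosome transporter gene Oca2 (699 on the PDGFRa(-) array, the largest of these bounds), the centromere gene Cenpp (526, at least 5.65-fold), Atp1b2 (475), Gpr37l1 (445), the replication-linked chromatin remodeller Hells (at least 4.52-fold), Rnf122, the mitotic kinase Melk (at least 4.19-fold), Kcna5, the checkpoint gene Kntc1 and the glucose carrier gene Slc2a3. Another Hells probe set, above the floor on both arrays, was level at a log2 ratio of 0.08, and another of Slc2a3 had -0.77.

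Lipid mediator genes were divided. Of 21 prostaglandin genes listed, 14 were compared, 5 higher, 2 lower, 4 within 2-fold and 3 with a bound under it. Release of arachidonic acid is the first step, and the phospholipases differed in opposite directions: Pla2g10 had 154 and 2139 (13.9-fold higher), Pla2g4a 325 and 762 (2.34-fold higher), and Pla2g5 4165 and 954 (4.36-fold lower). The cyclooxygenase gene Ptgs2 had 7481 and 15213 (2.03-fold higher), the prostacyclin synthase Ptgis 5313 and 17500 (3.29-fold higher) and the prostaglandin D synthase Ptgds 1047 and 389 (2.69-fold lower). Hpgd, which breaks prostaglandins down, had 412 and 5621 (13.6-fold higher), and at least 1.28 in log2 by its other probe set. Of 12 retinoid genes compared, 2 were higher, 1 lower, 7 within 2-fold and 2 with a bound under it. Aldh1a3, which makes retinoic acid, had 527 and 8512 (16.1-fold higher), with log2 ratios of at least 3.66, a bound, to 4.52 over 3 probe sets, while Aldh1a1 (225 and 188) and the degrading enzyme Cyp26b1 (705 and 409) were within 2-fold.

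In lipid transport, 11 of 17 listed genes were compared, 3 higher, 2 lower and 6 within 2-fold. Apoe, the main lipid-carrying apolipoprotein made outside the liver, had 14749 and 1099 (13.4-fold lower), while the cholesterol exporter Abca1 had 1003 and 2773 (2.76-fold higher), Apod 1233 and 2992 (2.43-fold higher) and the phospholipid transfer protein Pltp 1968 and 3989 (2.03-fold higher). Platelet-derived growth factors themselves were read beside the receptor. Of 7 family genes 6 were compared, 4 higher, 0 lower and 2 within 2-fold. The higher ones include Pdgfra itself, whose protein defined the sort, so its direction adds nothing to the count. The other Pdgfa probe set had a log2 ratio of 0.62. The ligand genes Pdgfd (151 and 884, 5.88-fold), Pdgfc (697 and 1934, 2.77-fold) and Pdgfa (833 and 1699, 2.04-fold) were higher with Pdgfra, Pdgfrb was within 2-fold at 914 and 1352, and the other Pdgfd probe set above the floor had at least 0.44 in log2. With the mean over probe sets 2 of the 6, a count that still includes Pdgfra, were higher.

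Matrix proteases and inhibitors were higher for 4 of 14 compared, lower for 1 and within 2-fold for 9. Next to Mmp13 these were the aggrecan-cleaving Adamts1 (2484 and 6033, 2.43-fold), the inhibitor Timp3 (6977 and 16279, 2.33-fold) and the membrane-bound Mmp16 (364 and 784, 2.16-fold), and the stromelysin Mmp10 (795 and 181) was 4.40-fold lower. Among stress genes, Egr2 (4567 and 15556, 3.41-fold), Egr3 (4665 and 9536, 2.04-fold), Ddit3 (2.11-fold) and Ptgs2 were higher, and Il6, at 4055 and 427, was the 1 lower and had the widest ratio of that list.

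Markers of other cells moved with the comparison, at low levels. Of 15 neutrophil and precursor genes, 14 had a probe set. Their summed signal was 835 on the PDGFRa(-) and 3873 on the PDGFRa(+) array, and 3705 on the PDGFRa(+) Sca-1(+) array. Of 13 compared, 7 were higher, but 11 of the 13 were under the floor on the PDGFRa(-) array, so only S100a8 (143 and 662) and Ngp (136 and 591) have a measured ratio. Mpo, at 712 the brightest of the list on the PDGFRa(+) array, was at least 7.64-fold higher and Prtn3 at least 3.85-fold. With the floor at the 33rd percentile 11 of 14 were higher, and at the 67th 3 of 4. Erythroid genes summed to 9319 and 3484, of which the transferrin receptor Tfrc, which dividing cells of any kind express, held 6574 and 1752. Of 11 compared, 3 were lower, among them Hemgn (360 and 138), and the red cell genes Hba-a1, Alas2 and Rhag were under the floor on both arrays. With median scaling 5 of the 11 were lower. The MHC class II list summed to 1677 and 684, with H2-Aa at 442 against under the floor. Of 13 monocyte and macrophage genes, 8 were under the floor on both arrays, C1qa, C1qb and Mrc1 included, and 5 were within 2-fold. Their part in the osteocyte, cartilage and dividing-cell results was not tested.

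Other stromal and skeletal cell types were read the same way. Of 12 compared genes of CXCL12-abundant reticular cells, which support blood formation, 7 were higher on the PDGFRa(+) array and 0 lower, 3 within 2-fold and 2 with a bound under it. Among those higher were Cxcl12 (435 and 1385, 3.18-fold) and Lepr (224 and 490, 2.19-fold). The other Lepr probe sets above the floor had log2 ratios of 0.34 and at least 0.17. Of the 12 genes 3 had a log2 ratio below 0, among them Foxc1, the brightest on both arrays (6447 and 4470). The summed signal of the list was 10474 against 12741, and 85155 on the PDGFRa(+) Sca-1(+) array. With the floor at the 67th percentile 3 of 9 were higher, and with the mean over probe sets 4 of 10. Fibroblast genes were within 2-fold for 5 of 9 compared, and 1 had a bound under it. Dpt (431 and 2437) and Col14a1 (426 and 2146) were higher and Efemp1 (4430 and 1469) was lower. On the PDGFRa(+) Sca-1(+) array Dpt read 24864, Col14a1 22823 and Efemp1 11292. All 7 tendon genes were within 2-fold. Of 9 osteoclast genes 6 were under the floor on both arrays. Of 9 smooth muscle genes 7 were compared and only Tagln passed 2-fold. Of genes with a probe set, 3 of 7 adipocyte and 3 of 9 skeletal muscle genes were above the floor on at least 1 array. For B lymphocytes it was 1 of 9 and for T and NK lymphocytes 1 of 7. More were for megakaryocytes, 5 of 6, and nerve, 4 of 5, with Gp1bb at 946 and 479 and S100b at 8404 and 5800. In these lists Adipoq (at least 3.16-fold), Itgb3 (at least 2.54-fold) and Tnnt3 (at least 3.59-fold lower) were those that differed.

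**Figure D5:**
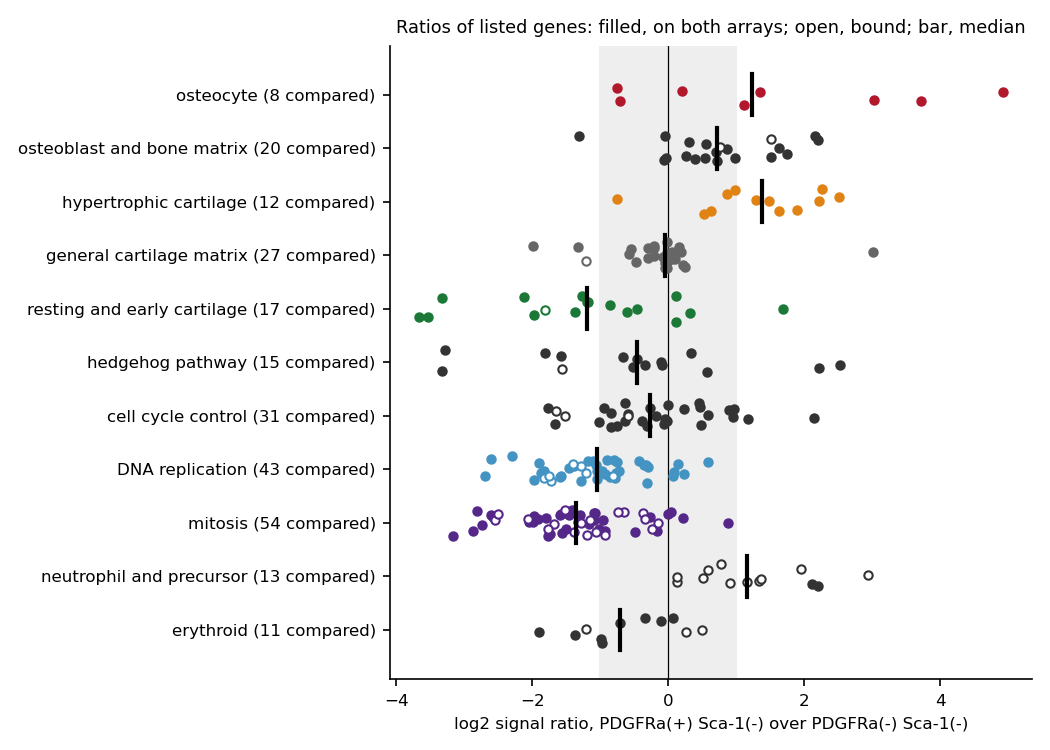
Log2 signal ratios of listed genes, PDGFRa(+) Sca-1(-) over PDGFRa(-) Sca-1(-), 1 row per list and 1 point per gene compared. Filled points were above the floor on both arrays, open points on 1 array with the other entered at the floor, black bars are list medians and the grey band marks ratios under 2-fold, where open points are only bounds. The medians run from -1.36 for mitosis to 1.38 for hypertrophic cartilage.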

How the data were processed

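Gene expression was measured on 1 Affymetrix array per sorted population, from total RNA amplified and biotin-labelled with the maker's two-cycle assay, per the labels' protocols. The deposited values are linear intensity signals per probe set, computed by the authors with MAS5 per the submitters' processing notes. Its version and detection calls are not given in the sources used. The 2% trimmed mean over the 45101 probe sets was 500 on each array. Without the 64 control probe sets, the arrays were brought to the same 2% trimmed mean. The mean of the 3 array medians served as floor in place of detection calls. The platform annotation gave 1 symbol to 34945 probe sets, several to 932 and none to 9160, and each gene took its brightest probe set by mean log2 signal over the 3 arrays. RefSeq GRCm38.p6 held the gene number of 34741 probe sets with 1 symbol.

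With 1 array per population no test was run, and the number of arrays limits the precision. Named genes were drawn from the gate markers, per direction the 20 largest measured ratios and the 12 brightest with a bound, and per list up to 8 members past 2-fold and 4 within it. Numbered clones were passed over. Members named beyond this rule, such as further subunits of a complex, were chosen after their values were seen. The members and lists were chosen with earlier results of these data known. The gene for Sca-1 and list members such as Runx2 and Spp1 lack an unambiguous probe set and were not analysed. Counting was tested on simulated data, with planted ratios wider than 2-fold in genes well above the floor. Recovery of ratios near 2-fold or of signals near the floor was not tested. Python 3.11.15, pandas 2.3.3 and SciPy 1.17.1 were used.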

Additional observations from a re-analysis of the deposited data

Results flagged for a closer look

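The probe sets for the bacterial poly-A transcripts, which the array maker supplies for mixing into the RNA before labelling, were higher on the PDGFRa(+) array. This was noticed in control probe sets that enter no comparison of genes. The ratio to the PDGFRa(-) array was above 1 for 12 of 12 such probe sets, with a median of 1.76 and a range of 1.44 to 2.73, and the median against the PDGFRa(+) Sca-1(+) array was 2.19. The 9 probe sets of the hybridisation controls had a median ratio of 1.02 between the same arrays. Whether the spikes were added in equal amounts, and their part in the gene ratios, was not tested.

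Of 3855 probe sets without a single gene symbol and above the floor on at least 1 array, 324 differed by 2-fold, 173 higher and 151 lower on the PDGFRa(+) array. That is 8.40%, beside 10.4% of the genes compared. These probe sets enter none of the gene counts.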

How the results depend on the processing

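With 1 array on each side, no replicate could be left out and no paired analysis was possible because each population has 1 sample. The 563 genes higher and 657 lower became 365 and 388 with the floor at the 67th percentile, 202 and 190 at a 3-fold threshold and 1471 and 1774 at 1.5-fold, and stayed within 1.5 times under the other 9 alternatives run. With the mean over probe sets the hypertrophic median moved from 1.38 to 1.76 and the mitosis median from -1.36 to -0.96 in log2, where a move was counted from the SD between probe sets of 0.37. The osteocyte, resting cartilage and replication medians moved by less than that under all 10 alternatives. Of 2560 recomputed ratios of named genes 176 moved by more than that SD and 0 changed from 2-fold or more to the opposite sign. The pooled count includes settings that barely alter a ratio, such as signals as deposited, with 0 of 267 moved. With the floor at the 67th percentile 68 of 233 moved, and with the mean over probe sets 58 of 247. Median scaling shifted the median of all genes from -0.03 to -0.05. Ratios near the top of the range and next to the floor are the least exact.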

Other observations

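Further gene groups were picked after their values were seen, so their counts only describe them. BMP and TGF-beta ligands, growth factors of bone and cartilage, went both ways: of 9 compared, 4 were higher on the PDGFRa(+) array, 2 lower and 3 within 2-fold. Bmp2 had signals of 8009 and 21194 (2.65-fold), Bmp8a 1223 and 4505 (3.68-fold) and Tgfb3 1748 and 5554 (3.18-fold) on the PDGFRa(-) and PDGFRa(+) arrays, beside Bmp6. Bmp7 had 2320 and 580 and Tgfb2 8151 and 3635 (2.24-fold), both lower, and another Bmp7 probe set had -2.34 in log2. Among nuclear factors of Wnt signalling, Tcf7l2 had 605 and 4380 (7.23-fold higher) and Tcf7l1 588 and 1814 (3.09-fold higher), while Lef1 had 1048 and 174 (6.03-fold lower). The Wnt target Axin2 was within 2-fold at 340 and 282.

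Of 5 cadherin genes compared, 4 were higher on the PDGFRa(+) array, Cdh19 (114 and 697, 6.13-fold) and Cdh15 (at least 3.54-fold) beside Cdh2 and Cdh11. Among 16 further collagens, 5 were higher, 3 lower and 8 within 2-fold. Col4a5 (696 and 3875), Col13a1 (590 and 2298) and Col24a1 (298 and 1176) joined Col22a1 among those higher, and Col12a1 (16506 and 4682), Col25a1 (869 and 228) and Col26a1 (535 and 99.4) were lower. A set of genes best known from muscle was higher for 8 of 10 compared, and 4 of these 8 were above the floor on both arrays. Among the 8 were Srl (134 and 837), Itga7 (225 and 1392) and, as bounds, Hrc and Cavin4. Of the skeletal muscle marker list, Myh1, Myh2, Myl1 and Ckm stayed under the floor on both arrays. Acta1 of that list was within 2-fold at 457 and 638, and Tnnt3 was lower, at 335 against under the floor.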
